A study of Mus musculus with 12 samples.

Results

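The Hox clusters are 4 tight groups of homeobox genes, Hoxa, Hoxb, Hoxc and Hoxd, and the regions described here are the ATAC-seq peaks at 38 of their genes. A peak of the wild-type (WT) or the Runx1 knockout (KO) list was taken as a Hox peak when its centre lay in the RefSeq span of a listed gene or within 10 kb of it, and each peak was counted once per cluster. All 38 genes were found in the gene table. This gave 20 of the 34118 WT peaks and 15 of the 27187 KO peaks.

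C2C12 is an established line of mouse myoblasts from adult leg muscle, and ATAC-seq marks open chromatin by the sites that Tn5 transposase can cut. Per the labels, WT and Runx1KO C2C12 cells were sampled in triplicate in growth medium with 20% serum (day 0) and on day 2 of differentiation medium, 12 samples in all. The peak lists are of growth medium only, and the day 2 samples were not analysed here. Each peak name carries the label of replicate 1 of its genotype, so every value rests on 1 library per genotype, with no replicate error and no p-value, and sequencing depth is unknown. How the Runx1 knockout was made, and whether the KO cells are a single clone, is not given in the sources used here. At Runx1 itself the WT list held 19 peaks, 7 of them specific to WT, and the KO list 12. Of the myoblast markers, Myod1, Cdh15, Des and Chrna1 had a peak in both lists, Pax7 had a WT peak only and Myf5 had none. The fibroblast markers Pdgfra, Thy1 and Twist2 also had peaks in both lists, as did the blood gene Spi1, whereas Sox2, Pax6, Neurod1, Ptprc and Cd3e had none.

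Hox genes encode homeodomain transcription factors that give cells a position along the body axis. Within a cluster they lie in the order of their paralogue groups, from anterior (groups 1 to 3) through central (groups 4 to 8) to posterior (groups 9 to 13), and in the embryo they are switched on in that order. Polycomb complexes keep unused Hox chromatin compact and trithorax complexes keep used Hox chromatin open, so that adult cells retain a combination of open and closed clusters that reflects where in the body they came from. RUNX1 is a transcription factor that binds DNA with its partner CBFB.

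Of the 38 Hox genes, 22 matched an entry in the RefSeq promoter table (build GRCm38.p6). Hoxa4, Hoxb2, Hoxb3, Hoxb5, Hoxb6, Hoxb7, Hoxb9, Hoxb13, Hoxc5, Hoxc6, Hoxc8, Hoxc9, Hoxc10, Hoxc11, Hoxc12 and Hoxc13 had no entry. A listed peak reached the promoter of Hoxa3 and of Hoxa11, so these are shown, each with its Hoxd paralogue, at which neither list had a peak. Each sequence is the 250 bases before the start site, read 5′ to 3′ on the strand of the gene, and capitals mark the bases that lie inside a WT peak. Hoxa3 is at chr6:52213068-52213317 on the minus strand, Hoxd3 at chr2:74711743-74711992 on the plus strand, Hoxa11 at chr6:52245811-52246060 on the minus strand and Hoxd11 at chr2:74679308-74679557 on the plus strand.
Hoxa3: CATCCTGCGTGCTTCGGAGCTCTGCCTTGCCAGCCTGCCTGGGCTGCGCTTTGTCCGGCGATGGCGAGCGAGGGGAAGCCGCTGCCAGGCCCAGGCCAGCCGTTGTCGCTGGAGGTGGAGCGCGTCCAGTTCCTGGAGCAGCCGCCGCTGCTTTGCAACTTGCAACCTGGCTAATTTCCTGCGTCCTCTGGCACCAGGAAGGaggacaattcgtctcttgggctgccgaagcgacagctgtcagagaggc
Hoxd3: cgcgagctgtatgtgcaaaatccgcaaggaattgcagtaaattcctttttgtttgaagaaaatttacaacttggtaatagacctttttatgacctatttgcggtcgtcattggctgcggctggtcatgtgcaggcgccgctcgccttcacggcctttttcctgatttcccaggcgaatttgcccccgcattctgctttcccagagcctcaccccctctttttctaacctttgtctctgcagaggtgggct
Hoxa11: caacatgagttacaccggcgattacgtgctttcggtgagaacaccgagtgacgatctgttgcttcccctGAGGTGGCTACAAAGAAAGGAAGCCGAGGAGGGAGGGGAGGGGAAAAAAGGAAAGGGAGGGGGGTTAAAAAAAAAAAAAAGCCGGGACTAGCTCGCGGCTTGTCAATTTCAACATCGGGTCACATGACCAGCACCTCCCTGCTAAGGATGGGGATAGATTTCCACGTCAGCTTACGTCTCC
Hoxd11: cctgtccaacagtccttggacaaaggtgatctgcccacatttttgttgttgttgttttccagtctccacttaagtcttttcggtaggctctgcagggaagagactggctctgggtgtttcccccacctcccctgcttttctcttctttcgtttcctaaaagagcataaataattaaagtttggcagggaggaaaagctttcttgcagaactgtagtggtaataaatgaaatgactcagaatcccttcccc
The WT peak covered 202 of the 250 bases at Hoxa3 and 181 at Hoxa11. The KO list covered all 250 at Hoxa3 and none at Hoxa11.

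The 4 clusters divided into a pair with peaks and a pair without. Hoxa, on chromosome 6, held 9 WT peaks and 4 KO peaks. Hoxc, on chromosome 15, held 11 WT peaks and 11 KO peaks. Hoxb, on chromosome 11, and Hoxd, on chromosome 2, held no peak in either list. Per 100 kb of genes and their 10 kb flanks, this came to 7.60 WT and 3.38 KO peaks at Hoxa and to 8.10 of each at Hoxc. Over all 4 clusters it was 3.92 WT and 2.94 KO peaks. The merged territory of all protein-coding genes, measured in the same way, held 1.96 WT and 1.58 KO peaks per 100 kb.

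**Figure D1:**
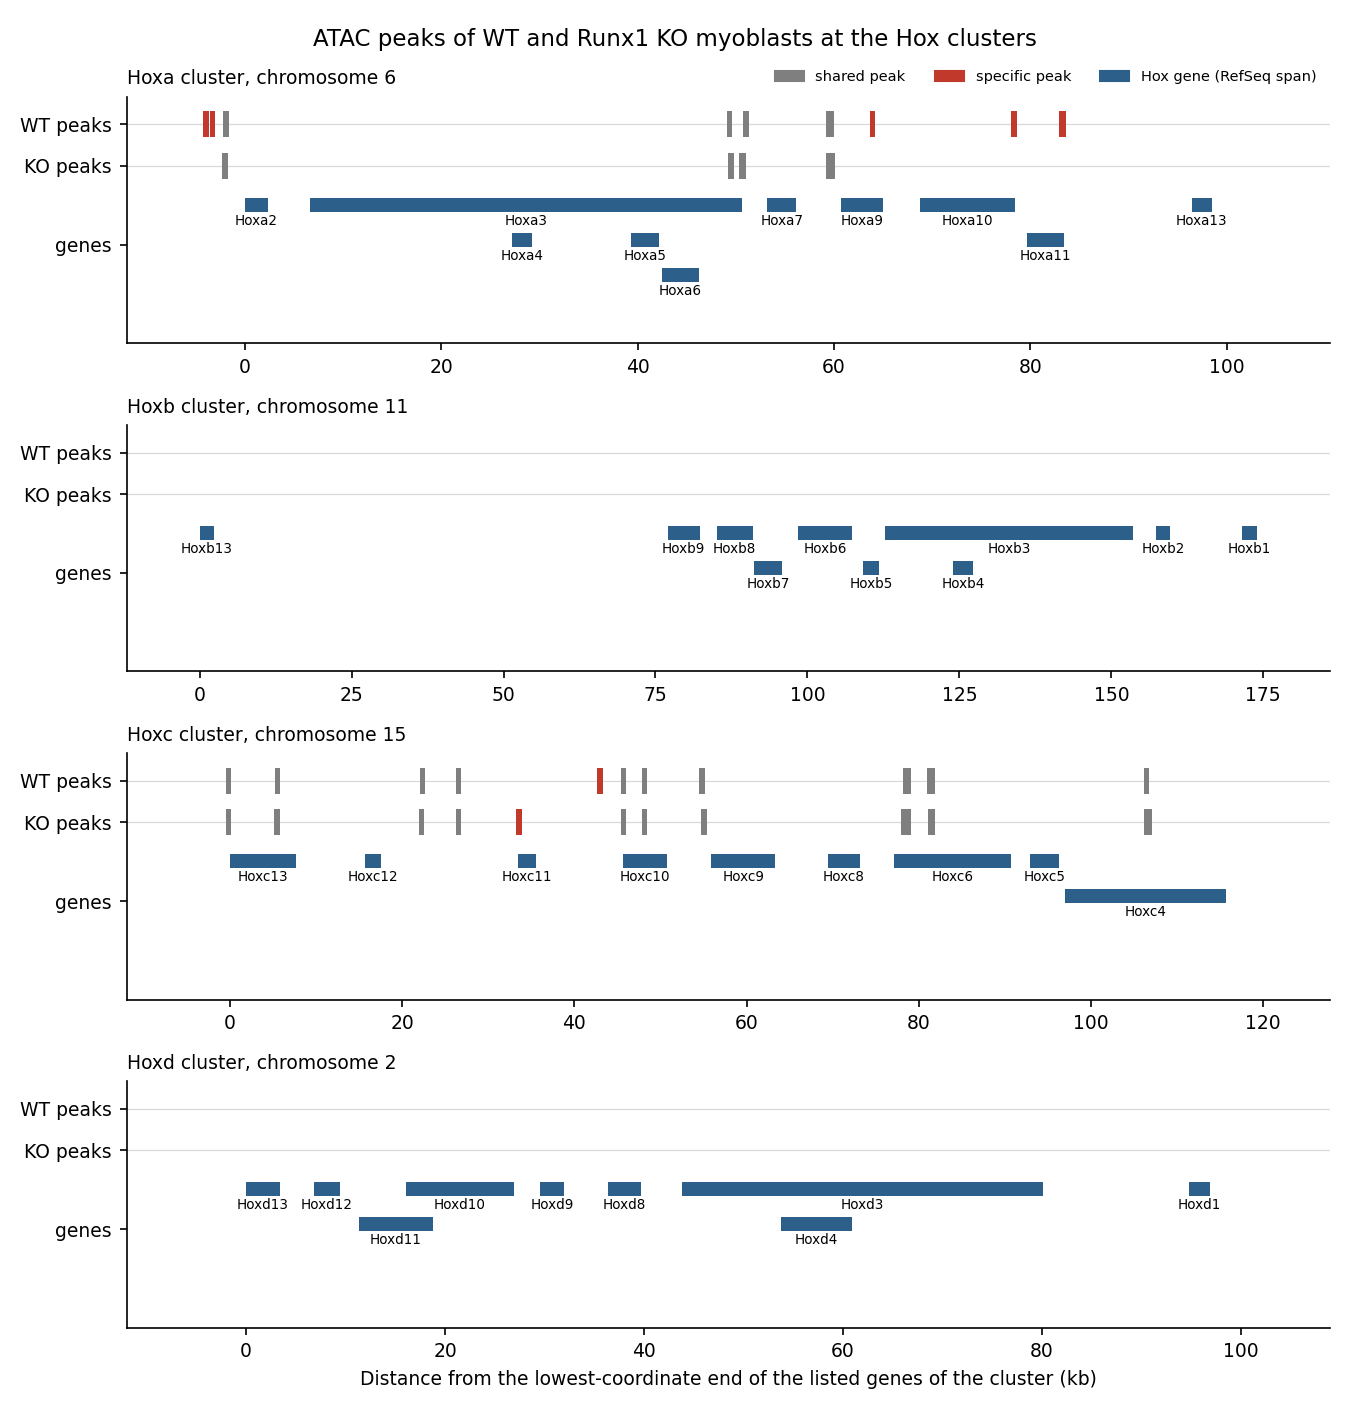
Positions of WT and KO peaks along the 4 Hox clusters, in kb from the lowest-coordinate end of the listed genes; grey peaks are shared, red peaks are specific to 1 genotype, blue bars are RefSeq gene spans and peaks under 0.6 kb are drawn 0.6 kb wide. Hoxa and Hoxc carry peaks and Hoxb and Hoxd carry none.

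**Figure D2:**
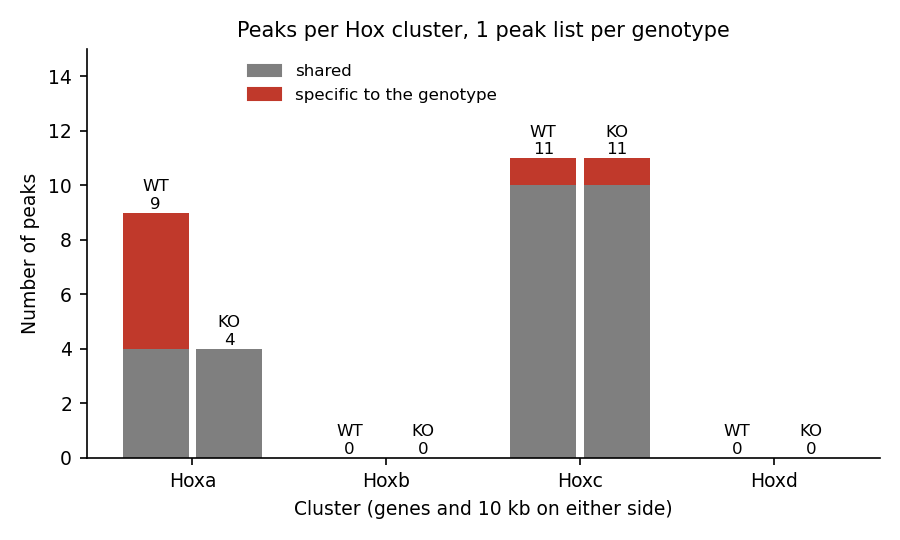
Number of peaks per Hox cluster in the WT and the KO list, with shared peaks in grey and peaks specific to the genotype in red. Of the 9 WT peaks at Hoxa, 5 are specific, against 1 of 11 at Hoxc in each list.

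By gene, 16 of the 38 Hox genes had a WT peak within 10 kb and 15 had a KO peak, whereas 64.6% of all protein-coding genes had a WT peak and 60.8% a KO peak. A peak of either list was found at 16 Hox genes and at 65.8% of all protein-coding genes. Neighbouring Hox genes share peaks, so these counts are not independent. A longer gene is also reached by a peak more easily, and these shares do not allow for length. No peak of either list was found at 22 Hox genes, which were the 10 Hoxb genes, the 9 Hoxd genes, Hoxa4, Hoxa13 and Hoxc5. Among posterior genes 8 of 16 had a WT peak, among central genes 6 of 15 and among anterior genes 2 of 7. These pooled counts mix the clusters and show no trend along them. At Hoxa they were 3 of 4, 3 of 4 and 2 of 2 in that order. At Hoxc they were 5 of 5 posterior and 3 of 4 central genes, with no anterior gene. The other anterior genes were 3 of Hoxb and 2 of Hoxd, the clusters without peaks. The anterior gene Hoxa3 has a RefSeq span that reaches past Hoxa6, so its peaks include some beside central genes. The most peaks lay at Hoxa3, Hoxa7, Hoxa10 and Hoxc10, with 4 WT peaks each. In the KO list these genes had 4, 3, 1 and 3 peaks in that order, and Hoxc11 also had 3.

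A WT peak was specific when no KO peak overlapped it by at least 1 bp, and the same in reverse for KO peaks. Over all clusters, 6 of 20 WT peaks were specific (30%, exact 95% interval 11.9 to 54.3), near the 27.3% of the whole WT list. Of the 15 KO peaks, 1 was specific (6.67%, interval 0.169 to 31.9), against 9.59% of the whole KO list. The KO share rested on the rule: with a reciprocal overlap of 50% it was 26.7% (4 of 15, against 18.4% of the list), and among peaks with a −log10 q of at least 10 in both lists it was 27.3% (3 of 11, against 12.2% of the list). Both reported intervals include the share of the list. They cover counting error only and describe the lists, not the genotypes. Hoxa held 5 of the 6 WT specific peaks (5 of its 9, 55.6%, interval 21.2 to 86.3) and Hoxc the remaining 1 (1 of 11, 9.09%, interval 0.230 to 41.3). These intervals, too, include the share of the whole list.

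At the anterior end of Hoxa, 3 WT peaks lay within 10 kb of Hoxa2, a gene of hindbrain and branchial arch patterning, in the stretch that holds the long noncoding RNA Hotairm1. The first, at chr6:52158160-52158573 in Hotairm2, was WT specific and the strongest Hoxa peak. It had a fold enrichment of 9.19 at its summit and a −log10 q of 24.4. By −log10 q it ranked 198 among the 9318 WT specific peaks. Of the 9 WT Hox peaks that reached the WT median −log10 q of 16.1, it alone was specific, and of all WT peaks that reached it 6.17% were. Of the 4 KO Hox peaks that reached the KO median, none was specific, against 1.45% of all KO peaks that did.

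The second, at chr6:52158845-52158979 in Hotairm1, was also WT specific, with a fold of 5.39 and a −log10 q of 9.19. The third was shared, at chr6:52160188-52160336 in the WT list (fold 5.34) and at chr6:52160137-52160324 in the KO list (fold 5.22). The KO list thus kept 1 of the 3 sites, 1158 bp from the nearer specific peak. The fold and −log10 q values are the authors' own for each list and depend on its depth, so values of the 2 lists stand side by side and are not compared.

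Hoxa3, which is needed for thymus and parathyroid development, had 2 shared peaks at its start. Its RefSeq span, chr6:52169059-52213067, contains those of Hoxa4, Hoxa5 and Hoxa6, so this start lies between Hoxa6 and Hoxa7. The WT interval chr6:52211476-52212030 (fold 5.23, −log10 q 6.22) contained the KO interval chr6:52211648-52211905 (fold 6.48, −log10 q 11.2), the strongest Hoxa peak of the KO list. The promoter was reached by the WT interval chr6:52213116-52213537 (fold 5.22) and the KO interval chr6:52212784-52213505 (fold 4.26), both centred in the RNA gene Hoxaas3. Peaks at Hoxa5 and Hoxa6 were these same intervals, and no peak centre lay in Hoxa5, Hoxa6 or Hoxa7.

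The widest Hoxa peak was shared and lay between Hoxa7 and Hoxa9, 1106 bp from Hoxa9 by its centre. The WT interval was chr6:52221590-52222394 (fold 7.71, −log10 q 18.7) and the KO interval chr6:52221569-52222470 (fold 4.37, −log10 q 7.30). It was the last retained KO peak on the posterior side of the cluster.

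Past that peak the WT list alone had peaks, 1 in each of Hoxa9, Hoxa10 and Hoxa11. Hoxa9, a regulator of blood progenitors, had a WT specific peak inside the gene at chr6:52226030-52226477 (448 bp, fold 6.27, −log10 q 12.5). Hoxa10, which acts in the uterus and the lumbar skeleton, had one at chr6:52240413-52240646 (234 bp, fold 4.30, −log10 q 4.69), 208 bp inside its upstream start site. Hoxa11, which patterns the forearm together with Hoxd11, had one that covered its start site and most of the promoter printed above, at chr6:52245370-52245991 (622 bp, fold 6.93, −log10 q 12.1). That interval also lies in the antisense gene Hoxa11os, and a peak list cannot assign it to a strand. Hoxa13, a gene of digit formation, had no peak.

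All 5 WT specific Hoxa peaks lay in stretches from which KO calls had been removed before deposit, as did 87.1% of the WT specific peaks of the whole list that lie between 2 KO peaks. The caller numbered its peaks along the chromosome, and 6 KO numbers are missing in the 80.3 kb around the Hotairm1 peaks and 8 in the 146 kb around the Hoxa9, Hoxa10 and Hoxa11 peaks. Across the whole of Hoxa, from the retained neighbour on one side to that on the other, the KO library had 19 numbered calls of which 4 were retained, and the WT library had 12 of which 9 were retained. These stretches were 289 and 218 kb long. In the full lists 55.6% of KO calls and 61.6% of WT calls were retained. The rule of removal is not given in the sources used here, and its part in the lower KO count at Hoxa was not tested.

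Hoxc had overlapping intervals in both lists from Hoxc13 to Hoxc4, with 10 shared peaks that each matched a single partner. The strongest WT peak of all clusters was inside Hoxc4, at chr15:103027303-103027632 (fold 15.7, −log10 q 45.9, percentile 90.2 of the WT list). Its KO partner was chr15:103027306-103028193 (fold 11.4, −log10 q 29.4, percentile 77.0 of the KO list). Both also lie in the predicted gene Gm30528. The site was 6763 bp (WT) and 6202 bp (KO) from the Hoxc4 start site of the promoter table.

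Hoxc6, a gene of the thoracic region, held 2 shared peaks, the widest of the cluster in the WT list. The WT intervals were chr15:102999250-103000184 (935 bp, −log10 q 25.5) and chr15:103002081-103002965 (885 bp, −log10 q 36.3). The KO intervals were chr15:102999060-103000184 (1125 bp, −log10 q 13.9) and chr15:103002196-103002969 (774 bp, −log10 q 22.3). No peak centre lay in Hoxc8 or Hoxc9, which pattern brachial and thoracic motor neurons, or in Hoxc5. Between Hoxc9 and Hoxc10 a shared peak lay 1159 bp from Hoxc9, with a WT fold of 6.81 and a KO fold of 5.67.

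Among the posterior Hoxc genes, the site beside Hoxc13, a regulator of hair and nail keratins, was the strongest Hox peak of the KO list. It lay at chr15:102920661-102921025 in WT (fold 12.6, −log10 q 32.5) and at chr15:102920671-102921025 in KO (fold 12.04, −log10 q 38.3). A second shared site inside Hoxc13 had a WT fold of 4.60 and a KO fold of 8.16. A shared site 4775 bp from Hoxc12 had a WT fold of 10.7 and a KO fold of 8.28. Nearer to Hoxc11, a shared site at chr15:102947390-102947526 (WT fold 7.93, KO fold 5.42) fell in Hotair, a long noncoding RNA of the Hoxc cluster.

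Hoxc10, a gene of lumbar motor neurons and hindlimb, had shared sites at its edge and in its body. At the edge the WT fold was 8.16 and the KO fold 6.22. In the body they were 4.56 and 5.92.

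Both specific Hoxc peaks lay in the stretch between Hotair and Hoxc10. The WT specific peak, at chr15:102963801-102963946 (146 bp, fold 5.66, −log10 q 11.6), was 2923 bp from Hoxc10. No KO call number was missing between the retained KO neighbours on its sides, 11.5 kb apart, so no numbered KO call had been removed there. This held for 1 of the 6 WT specific Hox peaks, and for 12.9% of those in the whole list that lie between 2 KO peaks. The KO specific peak, at chr15:102954378-102955035 (658 bp, fold 4.05, −log10 q 5.0), lay over one end of Hoxc11, a hindlimb gene. It was among the weakest of the KO list, at percentile 4.05 by −log10 q, and 2 WT call numbers are missing in the 16.3 kb around it.

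Within the WT list the Hoxc peaks were stronger than the Hoxa peaks at the median. The −log10 q of WT peaks ranged from 4.69 to 24.4 at Hoxa, with a median of 9.19, and from 3.88 to 45.9 at Hoxc, with a median of 23.2. The ranges overlapped. At or above the list median were 2 of 9 Hoxa peaks and 7 of 11 Hoxc peaks. Within the KO list the medians were 7.88 at Hoxa (range 5.40 to 11.2) and 14.2 at Hoxc (5.0 to 38.3), and 0 of 4 and 4 of 11 peaks reached the list median of 17.6. The median width was 422 bp at Hoxa and 330 bp at Hoxc in the WT list, where the list median was 371 bp. In the KO list it was 490 and 355 bp against a list median of 421 bp.

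**Figure D3:**
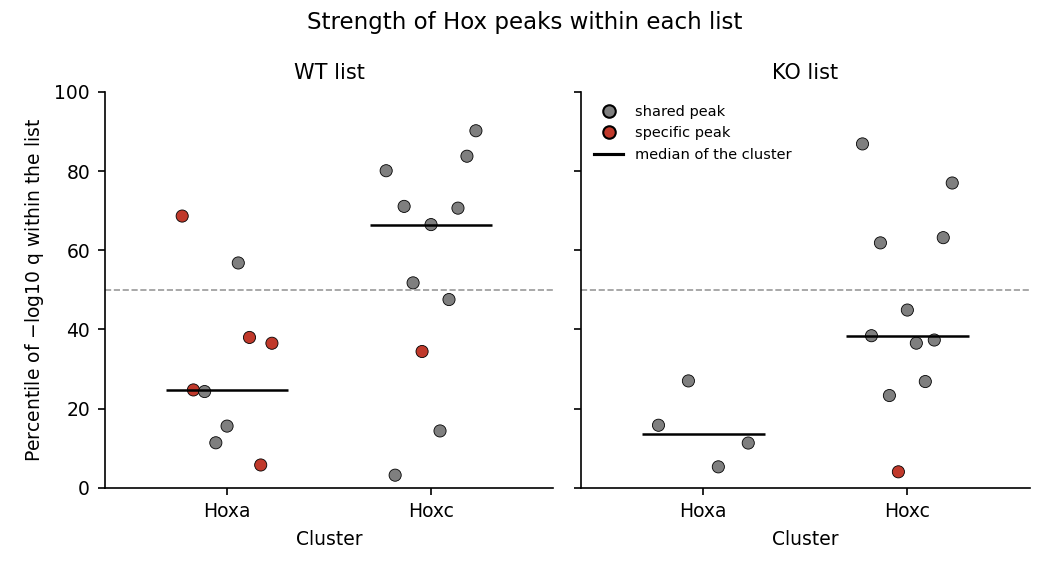
Percentile of each Hoxa and Hoxc peak by −log10 q within its own list, WT on the left and KO on the right; the dashed line is the list median and the short bars are cluster medians. The 4 KO peaks at Hoxa all lie under the median of the KO list, and percentiles are not compared between the lists.

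Hoxb and Hoxd each lay in a long stretch without a retained peak. At Hoxb the stretch was 382 kb in the WT list and 389 kb in the KO list and held all 10 Hoxb genes of the list among 16 protein-coding genes. At least as long were 1020 distances between neighbouring WT peaks (2.99%) and 1091 in the KO list (4.02%). The median distances were 21.4 and 28.2 kb. At Hoxd the stretch was 535 kb in WT and 533 kb in KO, with 9 Hoxd genes among 11 protein-coding genes. At least as long were 716 WT distances (2.10%) and 769 KO distances (2.83%). These shares count distances, and long ones take up more of the genome than their number shows. Such stretches are thus less rare than the shares alone make them look.

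The peaks that bound these stretches were stronger on the left side than on the right in both lists. Left of Hoxb lay the shared peak chr11:96018028-96018341 (WT fold 16.3, KO fold 19.0), 176 kb from Hoxb13. To the right, the first WT peak had a fold of 6.42 and the first KO peak one of 5.64. Left of Hoxd lay the shared peak chr2:74578731-74579232 (WT fold 14.3, KO fold 17.5), 89 kb from Hoxd13, and to the right the folds were 9.92 and 4.87. Calls had been removed inside both stretches, since 4 WT and 7 KO numbers are missing at Hoxb and 4 WT and 6 KO numbers at Hoxd. The lists therefore show that no call was retained at these clusters, and not that none was made.

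Promoters were read from 24 windows of the 22 genes with an entry. These were 9 Hoxa, 3 Hoxb, 1 Hoxc and 9 Hoxd genes, so most lay in clusters without peaks and Hoxc was almost absent. Hoxc10, Hoxc11 and Hoxc13 had no entry. The listed peaks beside or over an end of these genes, given above, could therefore not be counted as promoter peaks. A WT peak overlapped the window (250 bases before the start site and 50 after) at 2 of the 22 genes, Hoxa3 and Hoxa11, and a KO peak at 1, Hoxa3. Of all genes with an entry, 31.5% had a WT peak there and 28.8% a KO peak. By window, 2 of 24 Hox windows and 29.4% of all windows overlapped a WT peak. Hoxa9 and Hoxa10 were next, with a WT peak 893 and 208 bp from a start site. Their nearest KO peaks were 4900 and 18384 bp away. The Hoxb start sites were 34105 to 117958 bp from a WT peak, and those of Hoxd 88993 to 183748 bp.

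**Figure D4:**
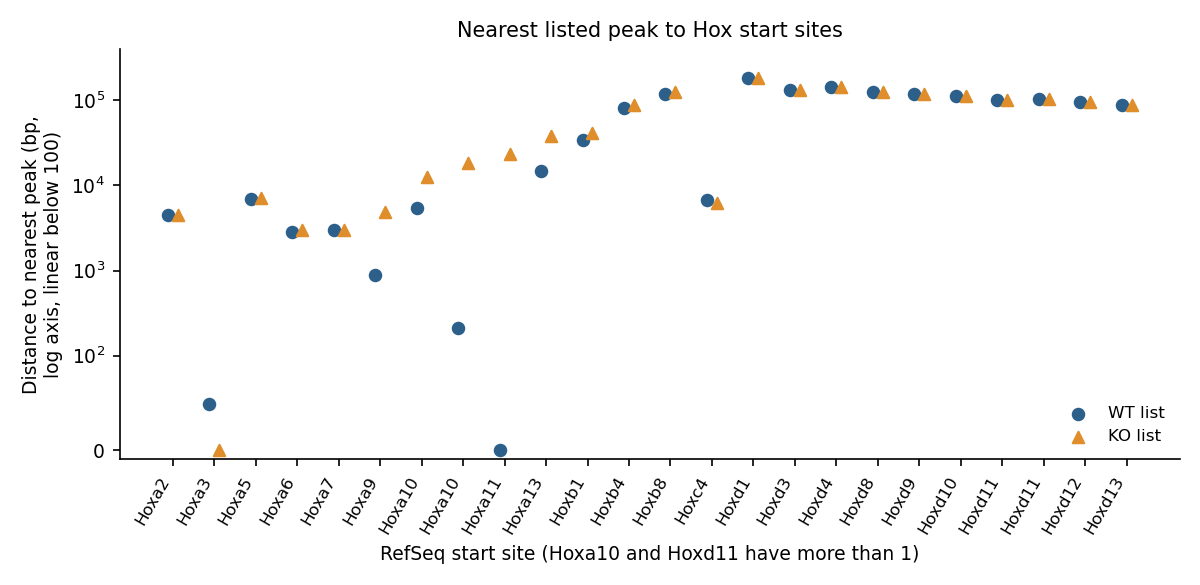
Distance in bp from each RefSeq start site of a Hox gene to the nearest WT peak (circles) and KO peak (triangles), on an axis that is logarithmic above 100 bp. The WT peak reaches the start site at Hoxa11, the KO peak does so at Hoxa3, and every Hoxb and Hoxd start site shown is at least 34105 bp from a peak.

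Hox promoters were rich in CpG, the dinucleotide of CpG islands that usually stay unmethylated and open. The median was 12.5 CpG in the 250 bases, from 2 to 35, against a median of 6 over 32851 windows of all genes. Of all windows with at least that count, 66.9% overlapped a WT peak and 61.6% a KO peak. Of the 12 Hox windows with at least that count, 2 overlapped a WT peak and 1 a KO peak. These 12 included windows of Hoxb and Hoxd, the clusters without peaks, and none of Hoxc. This CpG count was chosen after its values were seen.

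Short motifs were searched by their exact letters on both strands of the same 250 bases. TGTGGT or TGCGGT, core letters bound by RUNX proteins, were in 3 of 24 Hox windows (Hoxd1, Hoxd3 and Hoxd10) and in 18.6% of all windows. The ETS letters CCGGAA were in 1 window, the inner start of Hoxa10, against 12% of all windows. Neither motif was in the Hoxa3 or Hoxa11 sequences printed above, which says only that these letters are not in those windows. Homeodomain letters TAATTA were in both Hoxd11 windows (4.84% of all), and TGATTGA, bound by HOX with PBX, in Hoxa2, Hoxb1 and Hoxd11 (2.34% of all). The E-box CAGCTG, bound by myogenic factors such as MYOD, was in Hoxa3, Hoxa5 and Hoxa6 (13% of all). At Hoxa3 it lay 10 bases before the start site, inside the KO peak and outside the WT peak. TEAD letters GGAATG were in Hoxa9 (12.6% of all), AP-1 letters TGACTCA in Hoxd11 (4.46%) and CCGCCC, bound by SP and KLF factors, in 10 windows (32.7%). No match of one motif overlapped a match of another in the Hox windows, and CCGCCC overlapped itself at Hoxa6 and Hoxd13.

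The clusters also hold the miR-10 and miR-196 genes, which target Hox transcripts. By RefSeq span the miR-196 genes lie between Hox genes, Mir10a lies inside Hoxb3, and Mir10b lies inside Hoxd3 and Hoxd4. The mature 5p sequences (RefSeq, GRCm38.p6) are shown because genes with the miR-196 seed lie in clusters with and without peaks. Those with the miR-10 seed lie only in clusters without peaks. Capitals mark the seed, bases 2 to 8.
mmu-miR-196a-5p: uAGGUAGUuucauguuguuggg
mmu-miR-196b-5p: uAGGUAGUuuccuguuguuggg
mmu-miR-10a-5p: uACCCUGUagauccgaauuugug
mmu-miR-10b-5p: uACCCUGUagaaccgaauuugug
The miR-196a sequence is encoded by Mir196a-1 in Hoxb, with no peak within 10 kb, and by Mir196a-2 in Hoxc, with 4 WT peaks (1 specific) and 3 KO peaks. Mir196b in Hoxa, which has the same seed, had 2 WT peaks (1 specific) and 1 KO peak. Mir10a in Hoxb and Mir10b in Hoxd share the other seed and had no peak. ATAC-seq peaks do not measure these RNAs.

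Other gene groups related to Hox function were counted in the same way. The cofactors of the TALE class, homeodomain proteins that bind DNA together with HOX, had a peak at 9 of 9 genes in both lists. They held 46 WT peaks, 8 of them specific (17.4%), and 42 KO peaks, 5 of them specific (11.9%). With their flanks these 9 genes cover 1396 kb, against 510 kb for the 38 Hox genes. Per 100 kb they held 3.30 WT and 3.01 KO peaks, against 3.92 and 2.94 at the Hox genes. Pknox2 had 4 specific peaks among 7 WT peaks and 2 among 5 KO peaks. Meis1, with 9 peaks in each list, had 1 specific peak, in KO.

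The Polycomb and trithorax genes had a WT peak at 24 of 24 genes and a KO peak at 22, with 18 of 54 WT peaks (33.3%) and 4 of 39 KO peaks (10.3%) specific. Ezh1, an EZH2-like methyltransferase, and Rnf2, the catalytic RING subunit, had 1 WT specific peak each and no KO peak. At least 3 specific peaks were found at Phc2 (5 of 8 WT peaks, with 2 KO peaks), Jarid2 (3 of 5, with 2) and Cbx7 (3 of 6, and 1 of 4 in KO). The whole lists held 27.3% and 9.59%.

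Of the unclustered homeobox genes, 13 of 24 had a peak in each list. Their 39 WT peaks included 9 specific ones (23.1%) and their 30 KO peaks none. Prrx1, a mesenchymal regulator, had 9 WT peaks, 3 of them specific, and 6 KO peaks. Among the ParaHox genes Cdx1 and Cdx2 had peaks and Cdx4, Gsx1, Gsx2 and Pdx1 had none. Of the genes inside or beside the clusters, 15 of 29 had a peak, against 65.8% of all protein-coding genes. These 29 include noncoding RNA genes. Several, such as Hotair, Hotairm1 and Mir196b, lie in the clusters and share peaks with the Hox genes, so those peaks are counted again here. Cbx5, beside Hoxc, had 2 specific peaks among 5 in WT and 1 among 4 in KO. Hotairm1 had 3 among 4 in WT and none in KO, where it had 1 peak. Its WT peaks include the 3 at Hoxa2 given above, 2 of them specific, and its KO peak is the one given there. The remaining WT specific peak of Hotairm1 was not among the Hox peaks. Evx1 and Evx2, homeobox genes at the posterior ends of Hoxa and Hoxd, had none.

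**Figure D5:**
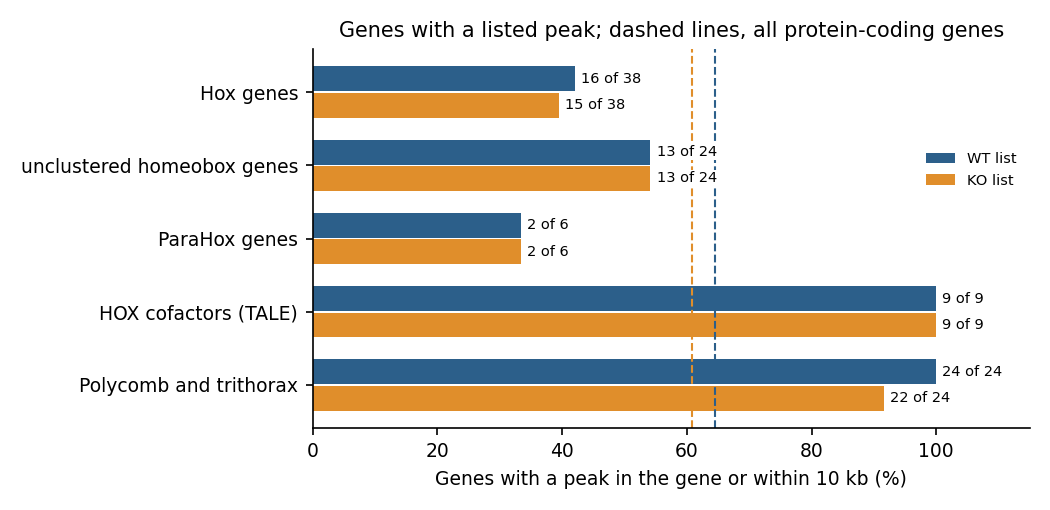
Percentage of genes with a WT or a KO peak in the gene or within 10 kb, for the Hox genes and 4 related gene lists; dashed lines mark all protein-coding genes (64.6% WT, 60.8% KO). Hox genes (16 and 15 of 38) lie under these lines and the HOX cofactors (9 of 9) above them. The percentages do not allow for gene length, and longer genes are reached by a peak more easily.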

How the data were processed

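The files are 5 peak lists in the layout of narrowPeak, of 1 library per genotype by their peak names. The genome build is mm10, per the submitters' processing notes. Per the labels' protocols, nuclei were tagmented with Tn5. The aligner, the peak caller, the Tn5 offset and the filters are not given in the sources used here, and each can change which peaks are listed and where they end. The deposited fold was read as an enrichment at the summit of the peak, and the background it was taken over is unknown without the caller. The deposited −log10 q and −log10 p are per peak, and the deposited score is about 10 times the −log10 q as a whole number. The score, the −log10 p and the unlabelled column of the specific lists entered no comparison.

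Deposited classes (shared, WT specific, KO specific) were equal to an overlap of 1 bp for every peak. Gene spans, promoters and miRNAs came from RefSeq tables of GRCm38.p6, the same assembly as mm10. All 1627 overlapping promoter windows on opposite strands were reverse complements, so the sequences read along the gene. Coordinates count from 1. Intervals of shares are exact Clopper-Pearson intervals at 95%. Sequences of the peaks themselves were not used here. Both compared lists are of growth medium, and no test between genotypes was possible with 1 list each. The functions were tested on simulated data and against bedtools 2.31.1, and 6 of 6 checks passed. Python 3.11.15, numpy 2.4.6, pandas 2.3.3, scipy 1.17.1 and matplotlib 3.10.9 were used.

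The members and the gene lists were chosen with earlier results of these data known. Named are all specific Hox peaks, the 3 Hox peaks with the highest −log10 q of each cluster and list, the Hox genes with the most peaks or none, and, of each other list, the genes with at least 3 specific peaks or else the one with the most; 1 gene that this rule names is not reported here. Meis1, Ezh1, Rnf2, Cdx2, Evx1, Evx2 and the remaining peaks were added after their values were seen.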

Additional observations from a re-analysis of the deposited data

How the results depend on the processing

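No paired analysis was possible because each genotype has a single peak list, and leaving out a replicate was not possible for the same reason. Under 15 alternative settings, 254 values were recomputed. Of these, 76 were counts at Hoxb and Hoxd, which no setting could raise above 0, since the nearest peak is 32 kb from the genes of the list, beyond the widest flank searched (20 kb). Of the other 178, 125 stayed within 1.5 times the reported count or within the wide 95% interval of a share or median. Within such an interval, the median width of KO peaks went from 355 to 658 bp with gene bodies only, and the KO specific share from 6.67% to 14.3% with gene bodies only, to 13.3% with an overlap of 50% of the peak or the centre rule, and to 26.7% and 27.3% as given above. The WT specific share went from 30% to 45% with a reciprocal overlap of 50% (35.0% of the whole list). With gene bodies only, the Hox clusters held 9 WT peaks (4 at Hoxa, 5 at Hoxc; 3 specific, all at Hoxa and 0 at Hoxc) and 7 KO peaks (1 at Hoxa, 6 at Hoxc). Within 1 kb of a gene there were 12 WT peaks (5 at Hoxa, 7 at Hoxc; 3 specific, all at Hoxa and 0 at Hoxc), and 2 KO peaks at Hoxa. These counts fall because less sequence is searched. With a −log10 q of at least 10 in both lists there were 13 WT peaks, 4 of them at Hoxa, 1 KO peak at Hoxa, and 3 KO specific peaks (1 at Hoxa, 2 at Hoxc), since weaker WT partners no longer counted. At or above the list median 9 WT peaks were left (2 at Hoxa, 7 at Hoxc), of which 1, at Hoxa, was specific (11.1%) and 0 at Hoxc, and 4 KO peaks (0 at Hoxa, 4 at Hoxc), of which 0 were specific, a share of 0%. An overlap of 50% of the peak gave 2 WT specific and 2 KO specific peaks at Hoxc, 2 KO specific in all. The centre rule also gave 2 WT specific and 2 KO specific peaks at Hoxc, 2 KO specific in all. A reciprocal overlap of 50% gave 3 of each at Hoxc, 1 KO specific peak at Hoxa and 4 KO specific in all. Counting a peak as specific only where no call of the other list is missing beside it, which was chosen after seeing the data, left 1 WT specific peak of 20 (5%), 0 of them at Hoxa, and 0 KO specific peaks (0%), 0 at Hoxc. With a start site within 1 kb of a peak, 4 Hox genes had a WT peak at their promoter (Hoxa3, Hoxa9, Hoxa10 and Hoxa11), and with the summit inside the window 0 had a KO peak there. Depth is unknown, so a missing peak is not shown to be closed chromatin.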

Other observations

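Both specific lists carry a column with no name, in which certain peaks are marked by a second copy of their start position. This mark was on 0 of the 6 WT specific Hox peaks and on 0 of the 1 KO specific Hox peak. In the full specific lists it was on 10.7% of WT peaks and 2.22% of KO peaks. What the mark stands for is not given in the sources used here.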
